A study of Gasterosteus aculeatus with 34 samples.

Results

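Co-variation of 8 genes was followed through the diencephalon and the telencephalon of 17 male threespine sticklebacks. The set was built around ENSGACG00000009153, called the reference gene below, whose level differed between males by orders of magnitude. A gene joined it if its level rose and fell with that of the reference gene over the 17 diencephalon libraries (Spearman rho of at least 0.6) and over the 17 telencephalon libraries (rho of at least 0.5). It also had to be higher in the diencephalon by at least 2 on the scale L = log2(CPM + 0.1), to reach a mean of 1 CPM there, and to have a standard deviation of L of at least 1 over the diencephalon libraries. CPM is the read count of a gene per 1000000 reads counted on all gene models of the library. Of 20747 Ensembl genes open to the rule, out of 22295 gene models in all, 8 met it. They are ENSGACG00000009153, ENSGACG00000014829, ENSGACG00000011475, ENSGACG00000006561, ENSGACG00000018317, ENSGACG00000001526, ENSGACG00000007820 and ENSGACG00000020471. No model of another class met its numeric parts (0 models).

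All fish were bred in the laboratory from wild parents of the white ecotype of Nova Scotia, and each male went through 8 behavioural trials. The final trial defined the group: 2 empty flasks (control, 4 males), a gravid female in a flask (courtship, 4), a rival male in a flask (challenge, 5) or the female and the rival at once (tradeoff, 4). Since every male had met all treatments on earlier days, the controls shared that history. Brains were dissected 60 minutes after the final trial, and each male gave 1 library per region.

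In fish, as in other vertebrates, the diencephalon holds the thalamus, the habenula and the hypothalamus, and the hypothalamus governs the pituitary gland attached beneath it. The telencephalon lies in front and holds the pallium and subpallium, which take part in learning and in the weighing of social stimuli. The files pair no names with the identifiers, and none of them (0 of 22295) matched the reference gene table, so the members are given by identifier, without a known function. For the same reason the regions were not checked against named marker genes. In bulk tissue, fewer cells of a type and less RNA per cell cannot be told apart.

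Diencephalon libraries held 16522465 to 34384860 reads on gene models and telencephalon libraries 22802875 to 36656215, so that 3 counts, the limit that a count of 0 allows, stood for 0.0872 to 0.182 CPM and 0.0818 to 0.132 CPM. Intervals and limits of this kind cover counting error only. A set of 368 other Ensembl genes that were also higher in the diencephalon by at least 2 on the L scale, but steady there (standard deviation of L under 0.5), served to place the libraries. In the telencephalon their median level was 8.25% to 17.1% of their mean diencephalon level in 15 males. It reached 50.5% in control male 304 and 32.4% in challenge male 322, whose telencephalon libraries thus stood apart from the rest.

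The reference gene was abundant in nearly every diencephalon library. In control males 303, 304, 307 and 308 it stood at 562, 863, 1877 and 3015 CPM. In courtship males 299, 319, 320 and 329 it stood at 1065, 1160.4, 761 and 541 CPM. All 8 of these libraries lay above 500 CPM. Challenge males 298, 317, 318, 322 and 330 had 526, 2661, 996, 0.545 and 683 CPM. Tradeoff males 302, 306, 321 and 323 had 489, 3542, 756 and 60.9 CPM. Male 322, with 9 reads, and male 323 were therefore far below the other 15 males, and the 4 groups overlapped.

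In the telencephalon the same gene ranged from absent to the level of a diencephalon library. Controls had 8.38, 704, 0.942 and 1317 CPM and courtship males 45.8, 0.273, 0 and 2.79 CPM, in the order of males given above. Challenge males had 974, 0.157, 0.201, 0.0816 and 0.0363 CPM, and tradeoff males 5.42, 24.0, 1288 and 103 CPM. In all, 4 of the 17 libraries exceeded 500 CPM, those of control males 304 and 308, challenge male 298 and tradeoff male 321. Another 7 libraries were below 1 CPM, those of 1 of the 4 controls, 2 of the 4 courtship males, 4 of the 5 challenge males and 0 of the 4 tradeoff males. Among the 16416 Ensembl genes whose diencephalon mean reached 1 CPM, the reference gene had the widest spread of L in the telencephalon (rank 1).

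**Figure D1:**
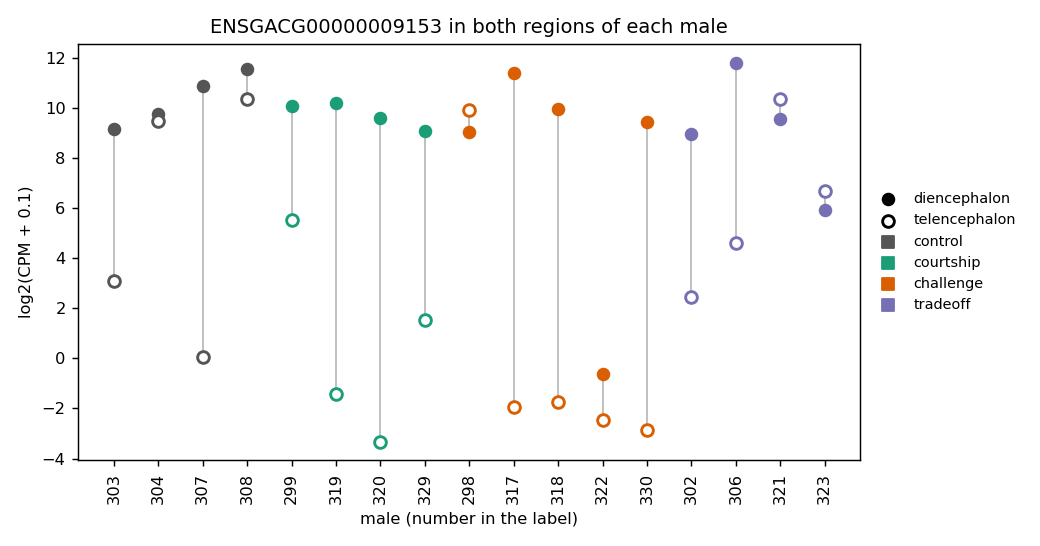
Level of ENSGACG00000009153 as log2(CPM + 0.1) on the y axis in the diencephalon (filled) and telencephalon (open) of each of the 17 males on the x axis, coloured by treatment, with a line joining the regions of a male. Diencephalon points lie high except in males 322 and 323, while telencephalon points spread over the whole axis, and the open point is above the filled one in males 298, 321 and 323.

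ENSGACG00000014829 was the member that ranked 2 in telencephalon spread. Its diencephalon levels were 695, 424, 994 and 741 CPM in controls, in rising order of male number here and below. Courtship males had 689, 329, 788 and 693 CPM. Male 319 was the low one. Challenge males had 303, 1394, 1098, 0.242 and 716 CPM, and tradeoff males 446, 781, 462 and 35.1 CPM. Males 322 and 323 were again the lowest of the 17. In the telencephalon, controls had 6.10, 268, 0.942 and 145 CPM and courtship males 20.6, 0.0818, 0 and 1.99 CPM. Challenge males had 529.5, 0.0315, 0.134, 0.0408 and 0 CPM, and tradeoff males 1.98, 7.76, 1028 and 100.2 CPM. The 4 telencephalon libraries that were high in the reference gene were also the highest here, but in another order: male 308 was the highest for the reference gene, and male 321 for this gene.

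ENSGACG00000011475 followed the reference gene most closely of the 16416 genes, with a rho of 0.80 there and 0.99 in the telencephalon (mean 0.89; values that chose the members, over 17 males each). Its diencephalon levels were 192, 389, 122 and 885 CPM in controls and 345, 271, 219.8 and 111 CPM in courtship males. Challenge males had 144, 1153, 280.4, 0.242 and 166 CPM, and tradeoff males 167, 1132, 175 and 15.8 CPM. Males 308, 317 and 306 were the highest, as for the reference gene. In the telencephalon, controls had 2.68, 219, 0.390 and 261 CPM and courtship males 9.66, 0.191, 0.0358 and 0.418 CPM. Challenge males had 189, 0.126, 0.167, 0 and 0.109 CPM, and tradeoff males 0.989, 7.56, 209 and 18.3 CPM. The order of the 4 high libraries was that of the reference gene except that male 304 passed males 298 and 321.

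ENSGACG00000006561 parted from the other members in single libraries. Its diencephalon levels were 233, 202, 248 and 529.6 CPM in controls and 19.7, 134, 367 and 176 CPM in courtship males. Challenge males had 179, 413, 296, 0.182 and 474 CPM, and tradeoff males 129, 680.1, 462 and 36.2 CPM. Courtship male 299 was thus low in this gene while its reference gene level of 1065 CPM lay above the median of 761 CPM. In the telencephalon, controls had 2.76, 166, 0.130 and 117 CPM and courtship males 5.78, 0, 0.143 and 7.64 CPM. Challenge males had 694, 0, 0, 0 and 0 CPM, and tradeoff males 0.0396, 31.1, 0.236 and 49.6 CPM. The telencephalon of tradeoff male 321 held 6 reads of this gene beside 32754 reads of the reference gene. That of tradeoff male 306 held 953 reads of it beside 737 of the reference gene.

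ENSGACG00000018317 was a low-abundance member that kept the pattern. In the diencephalon, controls had 12.8, 12.05, 14.6 and 30.1 CPM and courtship males 12.7, 12.5, 9.33 and 10.95 CPM. Challenge males had 11.9, 20.2, 18.5, 0.182 and 12.6 CPM, and tradeoff males 14.4, 35.0, 12.5 and 1.25 CPM. Apart from males 322 and 323, these 15 libraries stayed within 9.33 to 35.0 CPM. Telencephalon levels were 0.395, 7.51, 0 and 9.89 CPM in controls, and 22.5 CPM in challenge male 298 with 0 in the other 4 challenge males. Courtship male 299 had 0.963 CPM and the other courtship males 0, and tradeoff males had 0.0396, 0.0978, 12.9 and 2.38 CPM. A count of 0 in 8 telencephalon libraries means that the gene was not detectable at their depth.

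The 3 remaining members were near the lower limit of measurement in the telencephalon. ENSGACG00000001526 had 2.75, 2.27, 5.17 and 5.60 CPM in the diencephalon of controls and 2.27, 1.604, 4.08 and 4.71 CPM in courtship males. Challenge males had 2.90, 4.79, 3.98, 0.424 and 3.97 CPM, and tradeoff males 2.42, 9.36, 3.38 and 0.416 CPM. Males 322 and 323 were the low ones once more. In the telencephalon it had 0, 1.31, 0 and 0.397 CPM in controls and 0.148, 0.0273, 0.0358 and 0.558 CPM in courtship males. Challenge males had 3.03, 0, 0.0335, 0.122 and 0.0726 CPM, and tradeoff males 0.0396, 0.815, 3.11 and 1.39 CPM. Its highest telencephalon libraries were those of males 321 and 298, with 79 and 76 reads.

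ENSGACG00000007820 had 1.32, 1.56, 2.39 and 3.45 CPM in the diencephalon of controls and 2.12, 0.997, 1.55 and 2.76 CPM in courtship males. Challenge males had 1.52, 2.40, 2.83, 0.121 and 0.825 CPM, and tradeoff males 1.63, 2.50, 1.56 and 0.265 CPM. With 2 to 86 reads per library, small differences between males are within counting error. Telencephalon levels were 0.351, 0.708, 0.130 and 0.529 CPM in controls and 0.370, 0.109, 0 and 0.139 CPM in courtship males. Challenge males had 1.20, 0.0630, 0.0335, 0 and 0 CPM, and tradeoff males 0.0396, 0.196, 1.89 and 0.515 CPM. ENSGACG00000020471 was the lowest member, from 0.0605 to 2.56 CPM in the diencephalon (median 1.29) and from 0 to 1.32 CPM in the telencephalon. It had a count of 0 in 9 telencephalon libraries and at least 1 CPM in 1 of them, that of male 298.

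**Figure D2:**
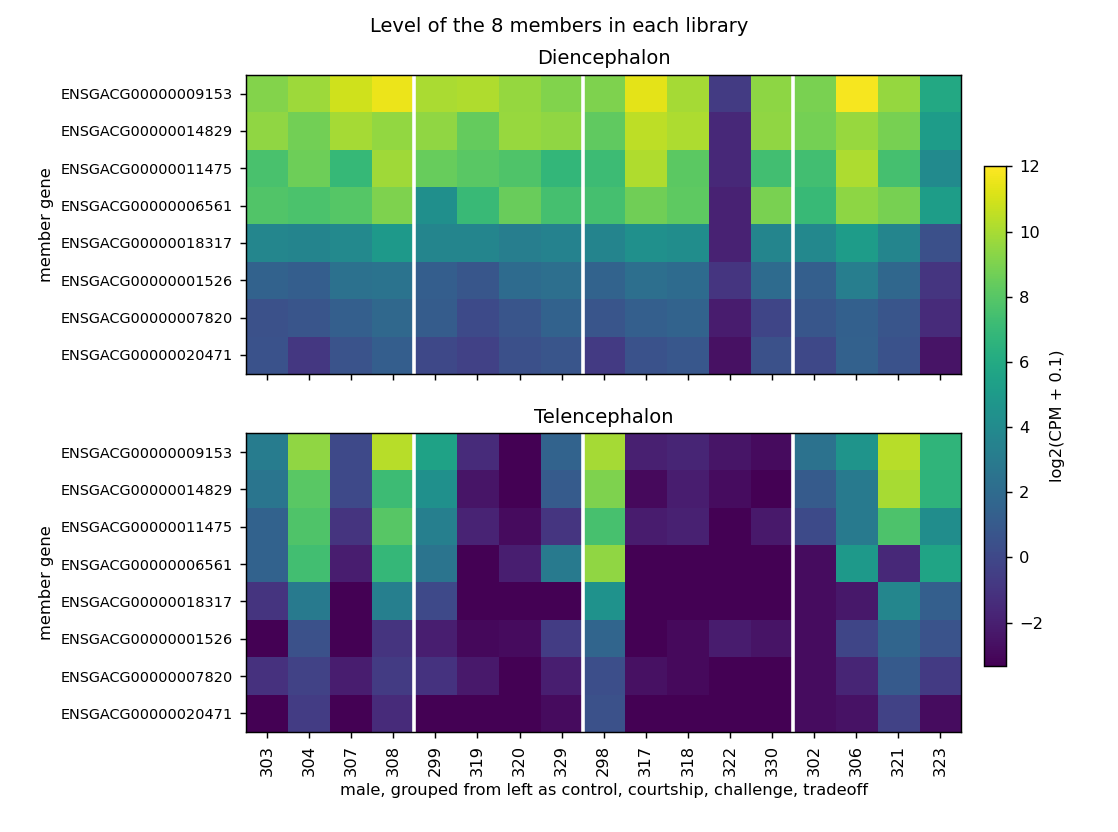
Colour gives log2(CPM + 0.1) of each member (y axis) in each male (x axis, grouped by treatment) for the diencephalon above and the telencephalon below. In the diencephalon, males 322 and 323 form the dark columns, and in the telencephalon males 298, 304, 308 and 321 form the bright ones, with ENSGACG00000006561 dark in male 321.

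Summed, the 8 members made up 0.000200% to 0.618% of the gene counts of a diencephalon library and 2.15e-05% to 0.254% of a telencephalon library. The highest share, in the diencephalon of tradeoff male 306, was 0.618% (95% exact binomial interval 0.616% to 0.621%). The diencephalon of challenge male 322 held 33 reads of all members together, against 3963 in tradeoff male 323 and at least 22221 in each of the other 15.

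Of the limits of the rule, only those on the diencephalon rho and on the diencephalon spread had genes that failed that part alone. ENSGACG00000020471 and ENSGACG00000006561 were just inside the former with rho of 0.608 and 0.610, and ENSGACG00000002587 and ENSGACG00000016592 just outside with 0.561 and 0.559. On the diencephalon spread, ENSGACG00000007820 and ENSGACG00000001526 were just inside with standard deviations of L of 1.06 and 1.11. The nearest outside were ENSGACG00000008195 and ENSGACG00000009403 with 0.984 and 0.709. In all, 8 genes failed the former part alone and 5 the latter alone. ENSGACG00000008195, at a mean of 25.4 CPM in the diencephalon and 8.02 CPM in the telencephalon, was the gene outside the set whose pattern was most like the reference gene (mean rho 0.80 over the regions, 17 males each), after ENSGACG00000011475, ENSGACG00000018317 and ENSGACG00000014829 with 0.89, 0.84 and 0.82. Over all 16416 genes the median rho with the reference gene was -0.05 in the diencephalon and 0.01 in the telencephalon.

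Membership rested in part on the males with the lowest diencephalon levels. Without males 322 and 323, a choice made after their values had been seen, 1 gene met the rule, ENSGACG00000011475; the reference gene itself then varied too little in the diencephalon. With only male 322, only male 323 or only male 308 left out, 4 of the 8 members remained in each case. The 4 lost were the same each time, ENSGACG00000001526, ENSGACG00000006561, ENSGACG00000007820 and ENSGACG00000020471. With male 306 left out, 5 members remained.

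The rule fixed how each member went with the reference gene, but not directly how the other 7 went with each other. Over these 21 pairs, rho ran from 0.39 to 0.87 in the diencephalon (median 0.68) and from 0.65 to 0.96 in the telencephalon (median 0.81). ENSGACG00000001526 and ENSGACG00000020471 were the closest pair in the diencephalon (0.87), and ENSGACG00000014829 and ENSGACG00000007820 in the telencephalon (0.96). In the diencephalon without males 322 and 323, the same 21 pairs had rho of 0.11 to 0.81 (median 0.54, 15 males). There ENSGACG00000011475 stayed close to the reference gene (0.71) but not to ENSGACG00000001526 (0.11) or ENSGACG00000020471 (0.13). All pairs share the libraries and their depth, and the values are descriptions with no test.

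**Figure D3:**
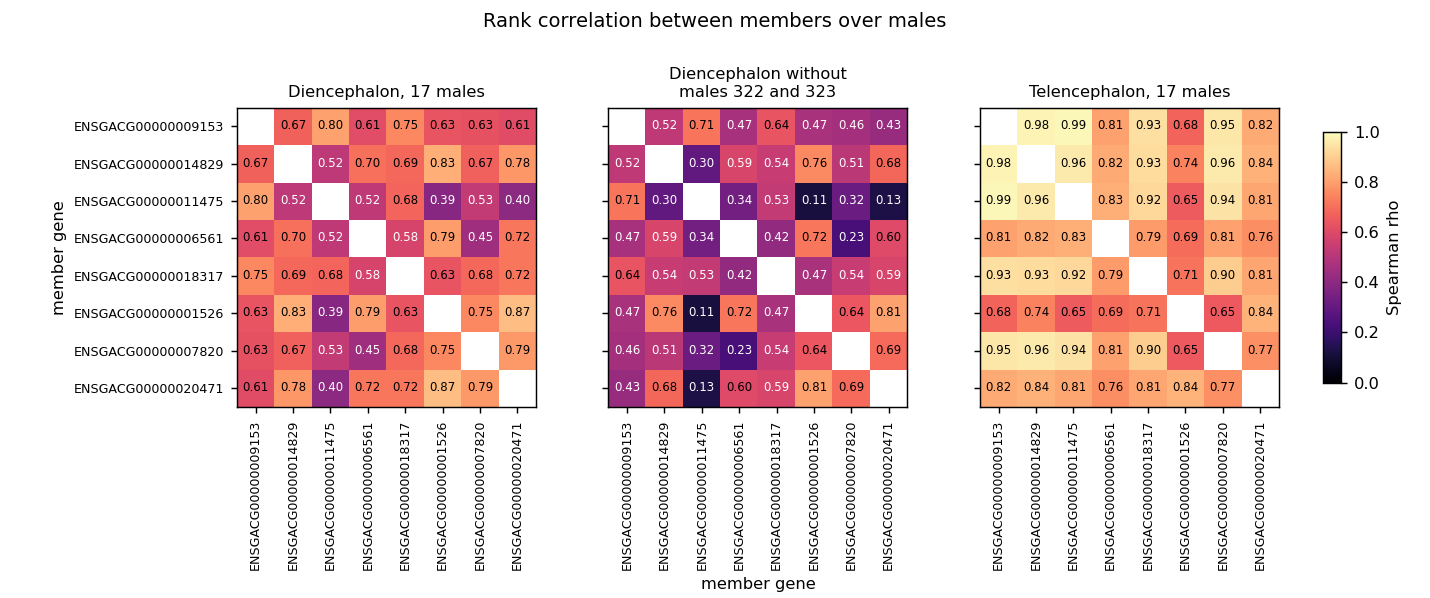
Spearman rho between members (both axes) over males, for the diencephalon of 17 males, the diencephalon without males 322 and 323, and the telencephalon of 17 males. Values are lowest in the middle panel, down to 0.11, and highest in the telencephalon, up to 0.99.

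Proportions between members were not constant among males. Since CPM is not divided by gene length, the ratios below are compared between males, not between genes. In the diencephalon, ENSGACG00000014829 was at 22.1% of the reference gene's CPM in tradeoff male 306 and at 128% in courtship male 329 (median 57.6%, n = 17). ENSGACG00000011475 ran from 6.48% in control male 307 to 45.1% in control male 304 (median 28.9%). ENSGACG00000006561 varied more, from 1.85% in courtship male 299 to 69.5% in challenge male 330 (median 29.8%). These 3 genes had at least 389 reads in every diencephalon library but that of male 322, so that the differences exceed counting error. In male 322 the ratios rest on 9 or fewer reads per gene.

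Levels in the 2 regions of a male showed no clear relation over the 17 males. The rule compared genes within a region, so this relation was not used by it. Over the 17 males, the level of the reference gene in the diencephalon and in the telencephalon had a Spearman rho of 0.06 (permutation p = 0.826) and a Pearson r of L of 0.19 (permutation p = 0.535). Adjusted over 17021 gene models, these are 0.889 and 0.657. Without males 322 and 323, the 2 farthest from the median diencephalon level, rho was 0 (permutation p = 1) and r 0.01 (permutation p = 0.959). For the other members rho ran from -0.39 (ENSGACG00000014829, permutation p = 0.124, adjusted 0.25) to 0.22 (ENSGACG00000011475, permutation p = 0.406, adjusted 0.554). None of the 8 passed an adjusted p of 0.05 (0 of 8), where 19.9% of all gene models did so (19.6% of all with a positive rho), and the median rho over all was 0.38. As the 8 members vary together, 0 of 8 beside that share is not read as a difference. Over 17 males, a missed threshold does not show that the levels of the regions were unrelated. Leaving out males 322 and 323 was a choice made after their values had been seen. ENSGACG00000014829 then moved to a rho of -0.53 (permutation p = 0.0455, adjusted 0.136) and an r of -0.51 (permutation p = 0.0512, adjusted 0.135). Over all 17 males its r was 0.07 (permutation p = 0.853, adjusted 0.903). This gene was the most extreme of the 8, so its unadjusted p-values do not count as support. Without the 2 males, the rho of the other 6 lay between -0.10 and 0.16.

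Which region was the higher in a male also varied. The difference between regions was part of the rule and is described only. Read accounting also set all libraries of the 2 regions apart, as given with the processing. ENSGACG00000009153 averaged 1151 ± 1022 CPM in the diencephalon and 263 ± 479 CPM in the telencephalon (SD, n = 17 each). It was higher in the telencephalon in 3 males, 298, 321 and 323. All 8 members were called higher in the diencephalon by edgeR, beside 36.8% of all 18923 genes tested, a count from which nothing is read. For each member, the telencephalon was the higher in 2 or 3 males. In challenge male 298 this held for 7 of 8 members, in tradeoff male 323 for 7, in tradeoff male 321 for 5 and in control male 304 for 1.

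The 5 males with over 100 CPM of the reference gene in the telencephalon differed in how evenly the members appeared there. In control male 304 the telencephalon level of the members was 45.4% to 122% of the level in the diencephalon of the same male. In control male 308 it was 7.09% to 43.7%. Challenge male 298 had 78.7% to 387% and tradeoff male 323 had 52.3% to 333%. Tradeoff male 321 had 52.3% to 223% in 7 members and 0.0511% in ENSGACG00000006561, whose diencephalon level of 462 CPM was ordinary. Among the other 12 males, the telencephalon level of the reference gene reached at most 14.98% of the diencephalon level, in male 322, where it rests on 2 and 9 reads.

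**Figure D4:**
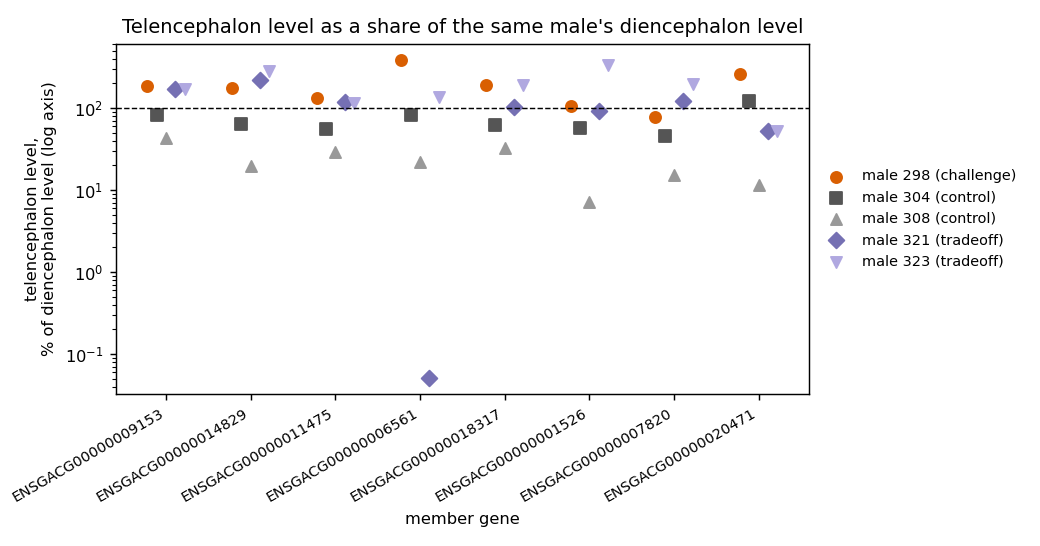
Telencephalon level of each member (x axis) as a percentage of the diencephalon level of the same male (y axis, log scale) for the 5 males with over 100 CPM of ENSGACG00000009153 in the telencephalon; the dashed line marks 100%. Male 308 lies below the line for all members, and male 321 stands at 0.0511% for ENSGACG00000006561.

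The telencephalon levels of the members were also set beside those of the 368 other diencephalon-enriched genes. In male 304 the median of the members was 50.9% of their mean diencephalon level and the median of the other genes 50.5%. In males 298, 308, 321 and 323 the members were at 85.4%, 36.8%, 89.4% and 16.4%, while the other genes were at 17.1%, 14.1%, 12.7% and 10.2%. These males were picked for their reference gene level in the telencephalon, and the members for following that gene there. High member levels in them thus follow from the choice and are described only. The upper quartiles of the other genes in these 4 males were 26.0%, 21.4%, 19.5% and 17.8% of the mean diencephalon level, all below the median of the members except in male 323. In male 322 the other genes were at 32.4% in the telencephalon, beside 6 reads of all members together. Its diencephalon held only 33 reads of the members. The percentages refer to means over all males, not to the same male. In the diencephalon of males 322 and 323, the median of the members was only 0.675% and 7.66% of their mean. Set against its own diencephalon, the telencephalon of male 323 had a median of 179% over the members. In the diencephalon of males 322 and 323, the other genes stood at 92.5% and 93.9% of their mean, within the range of 86.04% to 106% of all 17 libraries. Those genes were chosen for a small spread over these same diencephalon libraries, so levels near their mean there follow from that choice.

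**Figure D5:**
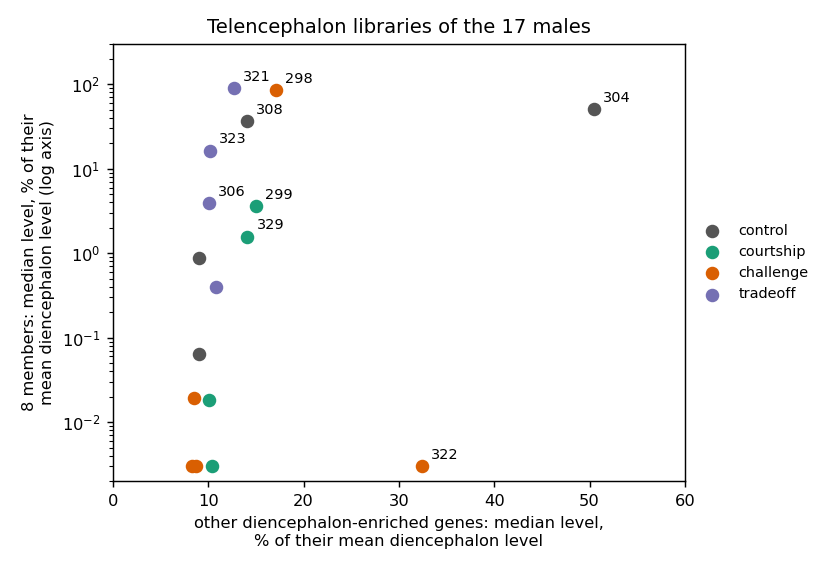
Each point is the telencephalon library of a male, coloured by treatment: the x axis gives the median level of 368 other diencephalon-enriched genes and the y axis (log scale) that of the 8 members, each in % of its mean diencephalon level. Males 298, 308, 321 and 323 are high on the y axis at 10.2% to 17.1% on the x axis, and male 304 is high on both; 4 libraries at or below 0.003% are drawn there.

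Whether the reference gene moved with the read accounting of the libraries was checked over 8 relations, 4 measures in each region, with 17 males each. The share of not-unique alignments in the diencephalon had a Pearson r of -0.59 (permutation p = 0.0202, Benjamini-Hochberg adjusted 0.162) and a Spearman rho of -0.22 (permutation p = 0.403, adjusted 0.596). Without the 2 libraries farthest from the median share, r was -0.24. For the share of reads on no feature in the diencephalon, r was 0.43 (permutation p = 0.0864, adjusted 0.23) and rho -0.01 (permutation p = 0.957, adjusted 0.957), and r turned to -0.58 without the 2 farthest libraries. The telencephalon share of ambiguous reads gave r = 0.49 (permutation p = 0.0442, adjusted 0.177) and rho = 0.52 (permutation p = 0.0345, adjusted 0.276), and r was 0.60 without the 2 farthest. Depth gave rho of 0.32 (permutation p = 0.209) in the diencephalon and -0.20 (permutation p = 0.447) in the telencephalon, with r of 0.37 (permutation p = 0.122) and -0.30 (permutation p = 0.244). Without the 2 farthest libraries, r for depth turned to -0.15 in the diencephalon and was -0.24 in the telencephalon. None of the 8 passed after adjustment (0 of 8), and the part of these measures in the levels was not tested further.

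The treatments were compared next, which the rule did not use. The study asks how the brain answers an opportunity to court, a territorial challenge and their combination. In the telencephalon, 7 of the 8 members passed the filter on low counts, all but ENSGACG00000020471, and in the diencephalon all 8. Over all 4 groups, 0 of 7 members tested in telencephalon libraries and 0 of 8 in diencephalon libraries passed an adjusted p of 0.05 in edgeR's quasi-likelihood test, as did 0% of all 18277 and 18399 genes. At an unadjusted p under 0.05 there were 0 members in either region, beside 2.49% and 2.72% of all genes. The lowest unadjusted p in edgeR was 0.272 in the telencephalon (ENSGACG00000006561) and 0.809 in the diencephalon (ENSGACG00000007820). The former changed with challenge male 298: without that male, 7 of 7 members had an unadjusted p under 0.05 in the telencephalon, beside 4.4% of genes, with a lowest adjusted p of 0.996 in edgeR. That male was singled out after its high values of these same members had been seen. Unadjusted p-values without it, here and below, are therefore described only and do not count as support. The members were chosen to vary together over these same libraries. Counts of members passing or sharing a sign, here and below, are therefore not counts of independent results. Set beside a share of all genes, they do not show enrichment.

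Courtship was set against the control first. In the telencephalon, the median level of the reference gene was 1.53 CPM after courtship and 0.157 CPM after the challenge. It was 356 CPM in controls and 63.4 CPM in tradeoff males. Low levels were thus not particular to courtship. The reference gene was at 0 to 45.8 CPM in the 4 courtship males and at 0.942 to 1317 CPM in the 4 controls, and these ranges overlap. The log2 fold of the reference gene was -5.39 (SE 3.14, edgeR adjusted p = 1). Members were chosen to follow the reference gene in these libraries, so a shared sign adds little to its own fold. All 7 members tested had a log2 fold below 0, with a median of -4.25 beside 0.00 over all genes, and 0 passed (0% of all genes; 0 members and 2.51% of genes had an unadjusted p under 0.05). The largest was that of ENSGACG00000011475, with -5.59 (SE 2.75, unadjusted p = 0.0621 in edgeR). Without courtship male 299 these folds of the reference gene and ENSGACG00000011475 were -8.97 and -9.08. Control male 304, whose telencephalon library stood apart, was 1 of the 2 high controls. Without it the median over the 7 members was -3.60 and ENSGACG00000001526 turned to 0.45. In the diencephalon the courtship males had 882 ± 284 CPM of the reference gene and the controls 1579 ± 1110 CPM (SD, n = 4 each). There the 8 log2 folds lay between -0.85 and -0.20 (median -0.48), and 0 of 8 passed (0% of all genes; 0 members and 2.34% of genes at an unadjusted p under 0.05).

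After the challenge, 1 male of 5 was high in the telencephalon. Male 298 alone carried the group mean of 195 CPM of the reference gene, the other 4 males lying at or below 0.201 CPM. Without that male, singled out after its value had been seen, the other 4 challenge males lay wholly below the 4 controls in the reference gene. The difference in mean L was then -8.00 in place of -5.56. How many of all genes separate these groups in this way was not counted. Male 298 was the only challenge male within the range of the controls. The separation therefore follows from leaving that male out, and no p is read from it. An exact permutation test of mean L over all 5 males gave p = 0.143 (adjusted over 12 pairs 0.514). With all 5 males, log2 folds against the control ran from -1.63 to 1.01 over 7 members (median 0.05), with 0 passing in edgeR (0% of all genes; 0 members and 2.66% of genes had an unadjusted p under 0.05). Without male 298 all 7 log2 folds were below 0, from -13.96 to -2.86 (median -10.07). An unadjusted p under 0.05 was then reached by 6 of 7 members and 4.77% of genes, while the lowest adjusted p of a member in edgeR was 0.985. Fitted folds of this size depend on the prior count, as several members had a count of 0 in these 4 males. With male 298 kept and control male 304 left out, telencephalon folds ran from -1.20 to 2.21 (median 0.41). In the diencephalon of all 5 males, log2 folds ran from -0.68 to -0.01 over 8 members (median -0.35), with 0 passing (0%; 0 members and 2.61% of genes at an unadjusted p under 0.05). Without male 298 these diencephalon folds ran from -0.52 to 0.18 (median -0.27).

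Each tradeoff male had at least 1 read of every member in the telencephalon, as did challenge male 298 and control males 304 and 308. In tradeoff male 302 this was a single read for ENSGACG00000006561, ENSGACG00000018317, ENSGACG00000001526, ENSGACG00000007820 and ENSGACG00000020471. Reference gene values of the tradeoff males, 5.42 to 1288 CPM, lay within the range of the controls. Without control male 304, whose telencephalon library stood apart, telencephalon log2 folds against the control ran from -0.94 to 3.25 (median 0.17). With all males they ran from -1.76 to 1.66 there (median -0.19) and from -0.75 to 0.09 in the diencephalon (median -0.16). Of 7 and 8 members tested, 0 passed in either region (0% of all genes; 0 members at an unadjusted p under 0.05, beside 2.75% and 3.14% of genes).

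Set against courtship, the tradeoff had log2 folds above 0 in all 7 telencephalon members tested, which the rule chose to vary together. Single males overlapped: the reference gene was at 5.42 to 1288 CPM in tradeoff males and at 0 to 45.8 CPM in courtship males. The median log2 fold of the 7 members was 4.06. For the reference gene it was 4.89 (SE 3.07, edgeR adjusted p = 0.999), and for ENSGACG00000014829 it was 5.69 (SE 3.01, unadjusted p = 0.0804 in edgeR). Single libraries carried these folds: without tradeoff male 321 they were 1.92 and 2.78, and without courtship male 299 they were 8.48 and 8.74. The count passing was 0 of 7 (0% of all genes; 0 members and 3.81% of genes had an unadjusted p under 0.05). In the diencephalon log2 folds ran from -0.55 to 0.90, with 0 of 8 passing (0%; 0 members and 4.51% of genes at an unadjusted p under 0.05).

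Tradeoff against challenge gave telencephalon log2 folds of -2.77 to 1.40 and diencephalon log2 folds of -0.74 to 0.31, with 0 of 7 and 0 of 8 members passing (0% of all genes in each; 0 members at an unadjusted p under 0.05, beside 3.44% and 3.53% of genes). Courtship against challenge gave -5.42 to -0.74 and -0.66 to 0.22, again with 0 of 7 and 0 of 8 passing (0% in each; 0 members at an unadjusted p under 0.05, beside 3.42% and 3.93% of genes). Non-additivity, tradeoff minus courtship minus challenge plus control, had telencephalon log2 values of 1.65 to 6.22 and diencephalon log2 values of -0.53 to 1.13. It passed in 0 of 7 and 0 of 8 members (0% in each; 0 members at an unadjusted p under 0.05, beside 2.98% and 2.77% of genes). Male 298 bore on each of these telencephalon comparisons. As it was singled out after its values of these members had been seen, counts of members without it are described only. Beside the shares of genes, they do not show enrichment. Without that male, tradeoff against challenge gave log2 folds of 4.44 to 12.27 in the 7 members, 7 of 7 with an unadjusted p under 0.05 beside 4.72% of genes. Courtship against challenge turned to 1.71 to 9.55, with 0 of 7 at an unadjusted p under 0.05 beside 7.91% of genes. Non-additivity became 5.66 to 16.82, with 7 of 7 beside 3.44% of genes. The lowest adjusted p of a member in edgeR among these 3 comparisons was 0.668 without that male, so that 0 passed. Comparisons that share a group share its libraries, so that their log2 folds are not independent of each other.

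Because the levels span orders of magnitude, the reference gene was also tested without a model of its spread. In an exact permutation test of mean L, two-sided, courtship differed from control by -5.16 in the telencephalon (exact p = 0.171, n = 4 each). The challenge differed from control by -5.56 (exact p = 0.143), the tradeoff from courtship by 5.44 (exact p = 0.0857) and from challenge by 5.84 (exact p = 0.119). Courtship minus challenge was 0.40 (exact p = 0.921) and tradeoff minus control 0.28 (exact p = 0.943). For these 2 pairs the edgeR log2 folds of the reference gene had the other sign, -4.05 and -0.50. In the diencephalon, the smallest exact p of the 6 pairs was 0.371, for courtship minus control with a difference of -0.61, which ran from -1.01 without control male 303 to -0.20 without control male 308. Adjusted over the 12 pairs of both regions, the lowest p was 0.514, and 4 males against 4 cannot go below an exact p of 0.0286.

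A difference of the treatment response between regions was tested as an interaction in all 34 libraries, where all 8 members passed the low-count filter. For courtship, the diencephalon response minus the telencephalon response had a log2 value above 0 in 8 of 8 members (median 3.66), which vary together by the rule. The reference gene had 4.53 (SE 3.09) and ENSGACG00000011475 had 4.83 (SE 2.82, unadjusted p = 0.0986 in edgeR). Without courtship male 299 these were 8.00 and 8.08, and without control male 304 that of ENSGACG00000001526 turned to -0.93. The count passing was 0 of 8 (0% of all genes; 0 members and 2.24% of genes at an unadjusted p under 0.05). The challenge and tradeoff interactions gave log2 values of -1.16 to 1.48 and -2.23 to 1.84, with 0 of 8 members passing in each (0%; 0 members at an unadjusted p under 0.05, beside 1.73% and 2.04% of genes). Without male 298 the challenge interaction was 2.61 to 13.81 in the 8 members, 7 of them with an unadjusted p under 0.05 beside 2.18% of genes and 0 with an adjusted p under 0.05 (lowest adjusted p in edgeR 1).

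DESeq2 was run as an alternative without the filterByExpr step but with its own default filter on mean counts. Shares are given of genes with an unadjusted p, some of which that filter may leave without an adjusted p. DESeq2 called 0 members in each of the 19 treatment and interaction comparisons. Over all 4 groups it called 0.00941% of all genes in the telencephalon and 0.0374% in the diencephalon. In the telencephalon it called 0.0047% of genes for courtship, for challenge and for tradeoff against the control, 0.0235% for tradeoff against courtship, and 0.00941% for tradeoff against challenge, for courtship against challenge and for non-additivity. In the diencephalon it called 0% against the control for each treatment, 0.0187% for tradeoff against courtship, 0.00468% for tradeoff against challenge, and 0.00935% for courtship against challenge and for non-additivity. For the interactions it called 0.00464% (courtship), 0.0511% (challenge) and 0.00464% (tradeoff). In 1 of 152 member tests DESeq2 gave no adjusted p. With SEs of 2.75 to 3.14 on the log2 scale for the folds of ENSGACG00000011475 and the reference gene in the telencephalon after courtship, a missed threshold there does not show that the groups were alike.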

How the data were processed

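Per the labels, RNA of each region was sequenced from TruSeq Stranded mRNA libraries, 1 per male and region. The authors deposited 1 table per library with raw counts of reads for each gene model and 5 summary rows that name no gene. STAR and HTSeq are named in the submitters' processing notes; the sources used here give no version, build, annotation or strand setting. Summary rows took 38.5% to 42.2% of reads in the diencephalon and 53.7% to 60.2% in the telencephalon and stayed out of library sizes and tests. The not-unique row held 3.72% to 4.73% in the diencephalon and 11.3% to 21.9% in the telencephalon. Ambiguous reads were 1.08% to 1.30% and 0.575% to 0.696%. These ranges do not overlap, so region and read accounting cannot be told apart. The part of this in the differences between regions was not tested. Near-identical gene copies may lose reads as not unique.

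CPM and L (pseudocount 0.1) were computed from the counts with the total over gene rows. Treatments were tested in R 4.3.3 with edgeR 4.0.16 (TMM factors, filterByExpr, robust quasi-likelihood F test, Benjamini-Hochberg over all genes of a comparison), per region in 17 libraries and, for regions and interactions, in 34 libraries with 8 groups. SE is the log2 fold divided by the square root of F. DESeq2 1.42.0, other size factors, no filter and leaving out each male were alternatives. Correlations between regions used 100000 permutations of the males (10000 with a male left out), in numpy 2.4.6. Fits and correlations were tested on simulated data.

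Replicates are different males. Male numbers pair the libraries of the 2 regions, as each animal gave a library of each. Members, comparisons and lists were chosen with earlier results of these data known. Named genes are all 8 members, with values in every library for 7 of them, and the genes next to a limit of the rule. The marker lists could not be used, as no identifier has a symbol here, and no sequence is shown.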

Additional observations from a re-analysis of the deposited data

Results flagged for a closer look

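On the L scale, 64 sets of 4 or 5 males (a member in 1 region of 1 group) were searched for a lowest or highest male set apart by Dixon's criterion, and 18 such values were found in 6 libraries. The criterion's nominal rate of about 1 in 20 sets by chance does not apply here. The same L values chose the members, which vary together, and in 5 of the 18 sets all other males were tied at a count of 0, which meets the criterion by construction.

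Challenge male 298 was high in the telencephalon for all 8 members. The reference gene was at 974 CPM there, the other 4 challenge males lying at 0.0363 to 0.201 CPM. ENSGACG00000014829 was at 529.5 CPM against at most 0.134, ENSGACG00000011475 at 189 against at most 0.167, and ENSGACG00000006561 at 694 CPM against a count of 0. ENSGACG00000018317 was at 22.5 CPM and ENSGACG00000020471 at 1.32 CPM, each against a count of 0. ENSGACG00000001526 was at 3.03 CPM against at most 0.122, and ENSGACG00000007820 at 1.20 CPM against at most 0.0630.

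Challenge male 322 was low in the diencephalon for 6 members. The reference gene was at 0.545 CPM against at least 526 CPM in the other 4. ENSGACG00000014829 and ENSGACG00000011475 were each at 0.242 CPM, against at least 303 and 144 CPM. ENSGACG00000006561 and ENSGACG00000018317 were each at 0.182 CPM, against at least 179 and 11.9 CPM. ENSGACG00000001526 was at 0.424 CPM against at least 2.90 CPM. Its depth of 16522465 counts was the lowest of the diencephalon libraries.

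Among courtship males, male 319 was low in ENSGACG00000014829 in the diencephalon, at 329 CPM against at least 689 CPM. In the telencephalon, male 299 was high in ENSGACG00000018317 at 0.963 CPM (26 reads) against counts of 0, and male 329 in ENSGACG00000020471 at 0.0349 CPM, which is 1 read. Tradeoff male 321 was high in ENSGACG00000020471 in the telencephalon, at 0.708 CPM against at most 0.0652 CPM.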

How the results depend on the processing

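Size of the set depended on the settings of the rule. With a pseudocount of 1 it held 5 genes, with Pearson's r of L 16 genes (all 8 members among them), and without males 322 and 323 1 gene; with 1 male left out it held 4 to 12. With a pseudocount of 0.01, TMM-scaled CPM or library sizes without the members, the same 8 genes were found. The 0 members called in each treatment and interaction comparison stayed at 0 under all 395 combinations of comparison and alternative, DESeq2 and leaving out each male among them. Of the 3074 member tests there, 54 (1.76%) had an unadjusted p under 0.05, beside 3.04% of all gene tests under the same settings. Leaving out male 298 gave 40 of the 54, among them 4 of 7 members for tradeoff against courtship (4.54% of genes) and 2 of 7 for courtship against control (3.01% of genes) in the telencephalon. The pairing of regions by male was also fitted: with the male as replicate block, 0 members were called in each of the 3 interactions (0% of all genes) and 8 in the region comparison (40.7% of genes higher in the diencephalon). Without the block, leaving out 1 male gave 7 to 8 members in the region comparison, beside 35.7% to 38.2% of genes. Within a region, no paired analysis was possible because each group holds different males. With 1 male left out, the reference gene's log2 fold of courtship against control in the telencephalon ran from -8.97 to -4.28, and that of tradeoff against courtship from 1.92 to 8.48. Its rho between the regions ran from -0.11 to 0.15, negative without male 308 or male 322. Low counts limit ENSGACG00000001526, ENSGACG00000007820 and ENSGACG00000020471 in the telencephalon.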
